A study of Homo sapiens with 6 samples.

Results

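The heterochromatin blocks of chromosomes 1, 9 and 16 held 219 of the 1743 peaks called in 4 chromatin immunoprecipitation (ChIP-seq) libraries of the RNA-binding protein RBMX and the DNA-binding protein RPA1. A peak was counted as a member when its midpoint lay in chr1 from 121 to 143.4 Mb, chr9 from 40 to 69 Mb or chr16 from 31.5 to 47 Mb of the hg38 build. Position alone decided whether a peak was a member, but the blocks themselves were picked with earlier results of these data known. All samples were 293T cells, a line derived from human embryonic kidney, that carried transfected Flag-RBMX or Flag-RPA1 and spent 24 hours in the topoisomerase I inhibitor camptothecin, and complexes were pulled down with beads against the Flag tag. Each protein had 2 precipitations, called replicate 1 and replicate 2, and replicate 2 also had an input of each protein that was not analysed here as a library of its own. Transfection and camptothecin were common to every list, and no untreated or untransfected cells were analysed here. The labels do not say whether the replicates came from separate cultures.

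These blocks flank or contain the centromeres and carry the largest arrays of classical satellites in the human genome, tandem repeats of short units that are packed as constitutive heterochromatin and hold few genes. Alpha satellite, a repeat of a longer unit, lies at the centromere itself. In an assembled genome much of these arrays is either unknown sequence, to which no read can align, or a model of the repeat, and copies that are absent from the assembly send their reads to the copies that are present. RPA1 is the largest member of the RPA trimer, which binds and protects exposed single DNA strands in replication and repair. RBMX is a nuclear RNA-binding protein of the hnRNP family with roles in splicing and in the DNA damage response.

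The replicates were sequenced and called differently, and this bears on every comparison between them. Replicate 1 had 20199680 (RBMX) and 20089972 (RPA1) retained tags of 50 bp, called by MACS 1.4.2 at a p of 1e-05 with no control. Its fold compares a peak with a background level of the same library, either of the surrounding 10000 bp or of the genome. Which of these set the fold of each peak was not determined. Replicate 2 had 6664290 (RBMX) and 6889249 (RPA1) retained tags of 150 bp, called by MACS2 2.2.4 at a p of 1e-12 against the input, with the local correction off. Its fold compares the summit with a single genome-wide level. No peak was thus compared with input at its own position, and the number of genomic copies, the alignability of the repeat and the amount of bound protein cannot be told apart in any value below. Differences between replicates cannot be told apart from differences in sequencing and calling.

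In RBMX replicate 1, 28 of 258 peaks lay in the blocks, which is 10.8% (95% exact Clopper-Pearson interval 7.33 to 15.3%). In RPA1 replicate 1 the number was 22 of 360 (6.11%, 3.87 to 9.11%). In replicate 2 it was 89 of 598 for RBMX (14.9%, 12.1 to 18.0%) and 80 of 527 for RPA1 (15.2%, 12.2 to 18.5%). Neighbouring peaks are not independent, and these intervals cover counting error only. Peaks fell on the same chromosomes in the 4 lists: chromosome 1 had 16, 10, 62 and 55 (RBMX and RPA1 of replicate 1, then of replicate 2), chromosome 16 had 12, 12, 26 and 25, and chromosome 9 had 1, in RBMX replicate 2.

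The chromosome 16 block took up almost all of that chromosome's peaks in replicate 2. There, 26 of the 27 RBMX peaks of chromosome 16 (96.3%) and 25 of its 26 RPA1 peaks (96.2%) were members. In replicate 1 the same block had 12 of the 25 on the chromosome for RBMX (48.0%) and 12 of the 36 for RPA1 (33.3%). On chromosome 1 the block took 62 of 114 for RBMX (54.4%) and 55 of 104 for RPA1 (52.9%) in replicate 2, against 16 of 59 (27.1%) and 10 of 73 (13.7%) in replicate 1.

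Joining overlapping peaks of the 4 lists gave 82 regions, of which 59 lay on chromosome 1, 22 on chromosome 16 and 1 on chromosome 9. Regions no more than 10 kb apart formed 17 clusters, and 11 of these were a single region. Of the rest, 4 clusters had peaks of all 4 lists, 2 on chromosome 1 and 2 on chromosome 16. Together these 4 clusters spanned 154.5 kb and held 26 of 28 RBMX and 21 of 22 RPA1 members of replicate 1, and 74 of 89 RBMX and 74 of 80 RPA1 members of replicate 2. Most members thus lay in a few dense stretches. Between them lay long intervals without a peak in any list. The longest were 18.0 Mb on chromosome 1, from 125183926 to 143184454, and 8.10 Mb on chromosome 16, from 38280181 to 46380535. Assembly gaps were not read here, so these intervals cannot be told apart from unknown sequence, to which no read can align.

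The nearest peaks outside the chosen limits were well separated from the clusters. On chromosome 1 they were an RBMX replicate 1 peak at chr1:120133306-120134182 with a fold of 6.90, 0.866 Mb below the block, and an RPA1 replicate 1 peak at chr1:144103220-144104546 with a fold of 10.9, 0.703 Mb above it. The last member inside the upper limit was an RPA1 replicate 1 peak at chr1:143275545-143276110 with a fold of 8.74, 0.124 Mb from it. On chromosome 16 the nearest outside peak was RPA1 replicate 1 at chr16:31033145-31035130 with a fold of 3.29, 0.465 Mb below the block, and the nearest above began at 58684326, 11.7 Mb beyond it. Around chromosome 9 the nearest outside peaks were 2.198 and 9.12 Mb away.

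The long-arm edge of the chromosome 1 block was the most crowded stretch. This cluster, chr1:143184454-143276133, held 42 regions in 91.7 kb, with 13 RBMX and 8 RPA1 peaks in replicate 1 and 45 RBMX and 46 RPA1 peaks in replicate 2. In replicate 2 the peaks of each protein covered about the same part of the stretch, 30.4% for RBMX and 29.0% for RPA1, with a median distance between neighbouring summits of 1242 and 1335 bp. In replicate 1 they covered 12.9% and 8.50%. Folds of replicate 2 ran from 10.4 to 164.7 for RBMX (median 47.6) and from 12.9 to 145.3 for RPA1 (median 40.9), and those of replicate 1 from 4.94 to 13.4 and from 6.33 to 15.2. The cluster held 5 regions with all 4 lists and 37 with both proteins, and its nearest annotated gene, LOC101929814, was 23.4 kb away.

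**Figure D1:**
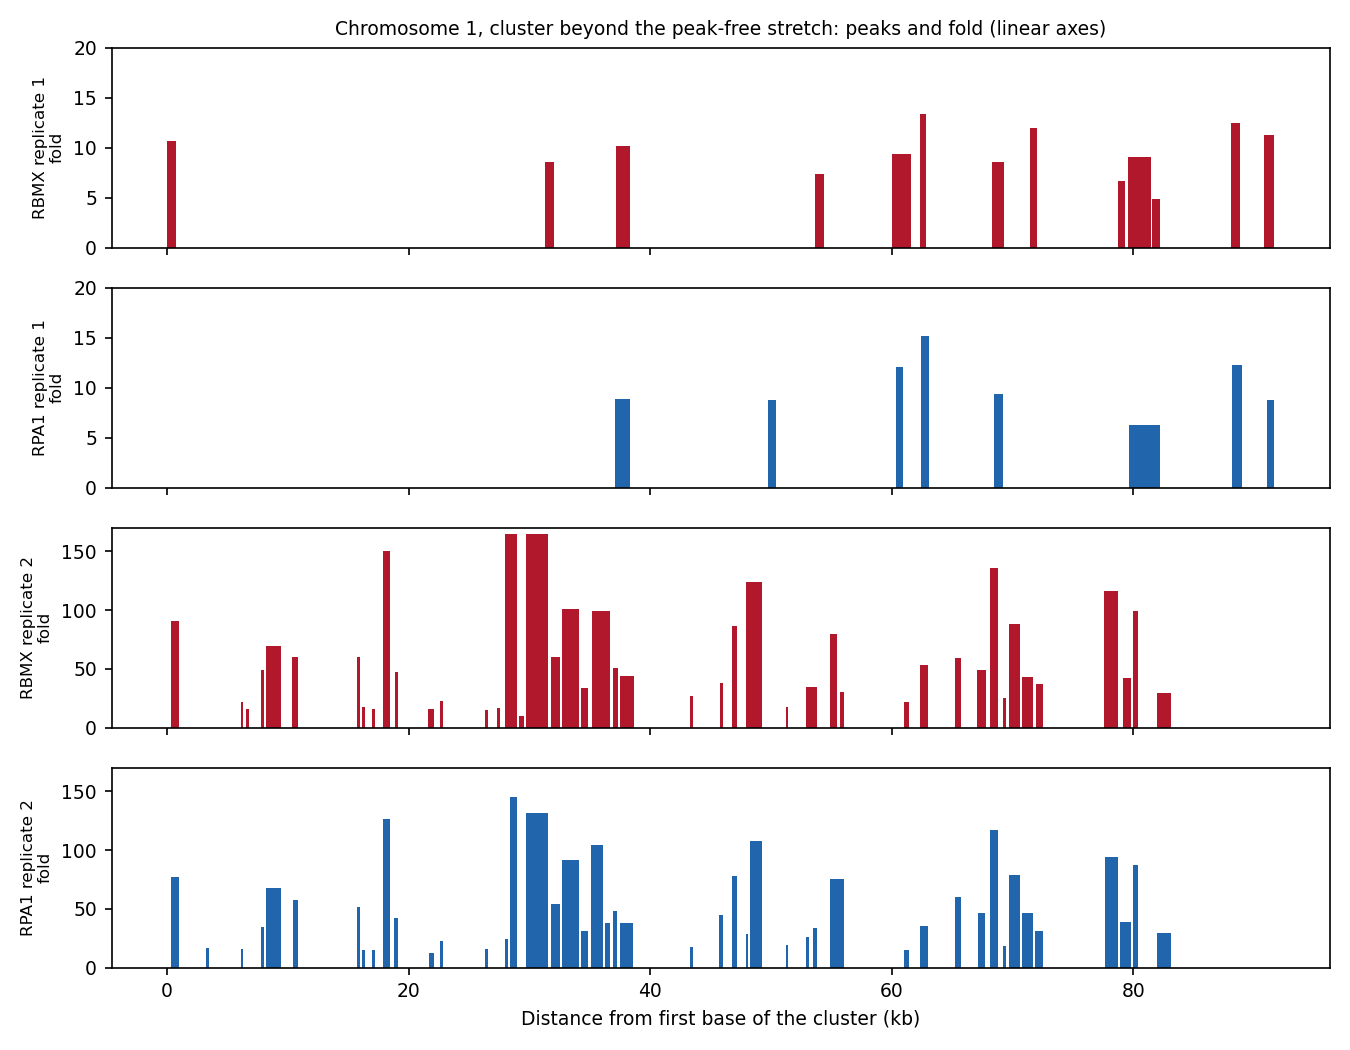
Peaks of the chromosome 1 cluster beyond the 18.0 Mb peak-free stretch, drawn as bars from start to end (x axis, kb from the first base of the cluster) with the deposited fold as height (linear y axes, 0 to 20 in replicate 1 and 0 to 170 in replicate 2). In replicate 2 the RBMX bars (red) and RPA1 bars (blue) have nearly the same places and heights, while the 13 and 8 peaks of replicate 1 are fewer and of fold at most 15.2.

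Its highest peaks in replicate 2 were chr1:143212431-143213412 and chr1:143214193-143215999 in RBMX, each with 252 summit tags, and chr1:143212817-143213407 in RPA1, with 286. Within this cluster the highest replicate 1 peaks and the highest replicate 2 peaks were different regions. The member of largest chromosome 1 fold in replicate 1, chr1:143246804-143247505, had a fold of 13.4 from 42 tags in RBMX and 15.2 from 46 tags in RPA1. In replicate 2 it had 81 and 69 tags at its summit and folds of 53.4 and 35.6, ranks 71 of 598 and 101 of 527. The region chr1:143252624-143253923 went the other way, with 34 and 22 tags and folds of 8.62 and 9.41 in replicate 1 and with 208 and 230 summit tags and folds of 136.1 and 117.0 in replicate 2. A wider region, chr1:143263173-143267557, had 132 and 117 tags in replicate 1 and 152 and 172 summit tags in replicate 2. At the far end of the cluster, 2 regions, starting at 143272574 and 143275251, had peaks of both proteins in replicate 1 and none in replicate 2.

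At the other end of the peak-free stretch, the cluster chr1:125167670-125183926 held 7 regions in 16.3 kb, with 3 RBMX and 2 RPA1 peaks in replicate 1 and 7 RBMX and 6 RPA1 peaks in replicate 2. It contained the member peaks of largest fold of the RBMX and RPA1 lists of replicate 2, and the nearest annotated gene, EMBP1, was 3596 kb away. The region chr1:125178798-125180787 had 24 tags (fold 6.60) in RBMX replicate 1 and 24 tags (fold 6.52) in RPA1 replicate 1. In replicate 2, from libraries of fewer tags, it had 342 tags at the RBMX summit (fold 223.3) and 359 at the RPA1 summit (fold 182.2). The RBMX replicate 1 peak there, chr1:125179753-125180372, was also the RBMX member nearest the calling limit, with a −log10 p of 5.12. The neighbouring region chr1:125181088-125183236 had 42 and 20 tags in replicate 1 and 289 and 293 summit tags in replicate 2. In both regions the proteins were close to each other within replicate 2, and the replicates were far apart. Keeping 1 tag per position limits how high a summit can be, and the part of this limit here was not tested.

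The rest of the chromosome 1 block, below this cluster, had only low, isolated peaks of replicate 2. There were 10 RBMX peaks between 122842658 and 124778275, each 201 to 246 bp wide with 20 to 30 tags at the summit and folds of 13.7 to 20.2. RPA1 had 3 there, between 124714846 and 124757804, with 27 to 36 summit tags and folds of 14.4 to 18.9, and all 3 overlapped an RBMX peak. Replicate 1 had none.

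On chromosome 16 the short-arm cluster, chr16:34571515-34596482, and the long-arm cluster, chr16:46380535-46402123, were compact and shared by the lists. The first spanned 25.0 kb with 8 regions, of which all 8 had both proteins and 6 had all 4 lists. Its peaks covered 57.0% (RBMX) and 42.0% (RPA1) of it in replicate 1 and 42.6% and 42.8% in replicate 2. The second spanned 21.6 kb with 8 regions, again all with both proteins, 4 of them with all 4 lists, and coverage of 45.6% and 40.4% in replicate 1 and 56.3% and 58.1% in replicate 2. Their nearest annotated genes were LOC102724523, 138.4 kb away, and the pseudogene ANKRD26P1, 67.2 kb away. In the long chromosome 1 cluster, by comparison, coverage in replicate 1 was at most 12.9%.

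**Figure D2:**
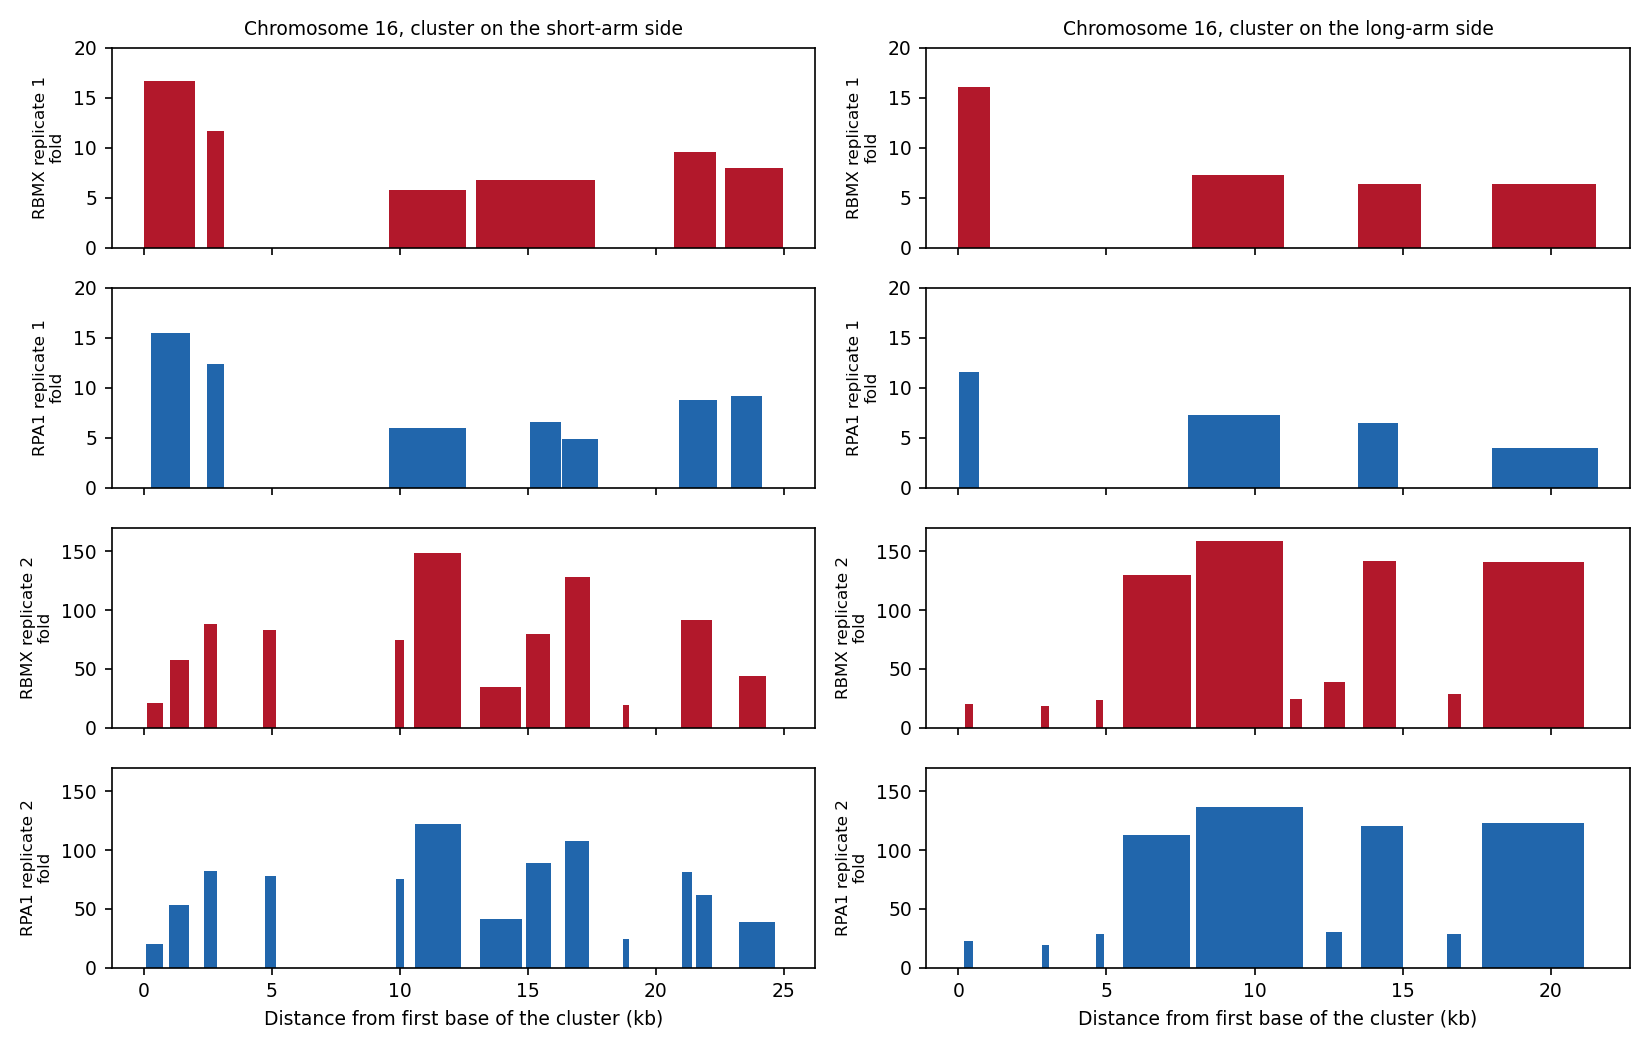
Peaks of the chromosome 16 clusters on the short-arm side (left) and the long-arm side (right), drawn as bars from start to end (x axis, kb from the first base of the cluster) with the deposited fold as height (linear y axes, 0 to 20 in replicate 1 and 0 to 170 in replicate 2). RBMX is red and RPA1 blue. Peaks of the 4 lists lie over the same stretches, but in replicate 1 the first peaks have the largest folds (16.7 and 15.5 on the left, 16.1 and 11.5 on the right) while in replicate 2 wide peaks of up to 158.9 do.

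The region chr16:46386102-46392162 had the most tags of the members in replicate 1, 996 in RBMX and 1014 in RPA1. The RPA1 count was the highest of its 360 peaks and the RBMX count the second highest of its 258. Its folds were nevertheless 7.31 and 7.29, ranks 103 and 130. In replicate 2 it had 243 and 268 summit tags and folds of 158.9 and 136.2, ranks 8 and 6. The same held for chr16:46398222-46402123, with 748 and 702 tags but folds of 6.35 and 3.99 in replicate 1, and folds of 140.6 and 123.1 in replicate 2. On the short-arm side chr16:34581083-34584109 had 588 and 602 tags with folds of 5.74 and 5.98, and 148.5 and 122.1 in replicate 2. The region chr16:46394022-46396148 had 477 and 440 tags, folds of 6.42 and 6.53 in replicate 1 and 141.3 and 120.6 in replicate 2, and the summits of the 4 lists lay within 34 bp of each other.

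In the first region of each cluster the order was different. In chr16:34571515-34573522 replicate 1 had 158 and 155 tags and folds of 16.7 and 15.5, the largest member fold of either list, and replicate 2 had 87 and 104 summit tags with folds of 57.3 and 53.3, ranks 67 and 61. Next to it, the RPA1 replicate 1 peak chr16:34573977-34574662 had 66 tags and a fold of 12.35, the next largest of that list's members after the chromosome 1 region already given. In chr16:46380535-46381600 the folds of replicate 1 were 16.1 from 74 tags and 11.5 from 49 tags, with the summits of the 4 lists within 24 bp. In replicate 1 the peaks covered 40.4 to 57.0% of these clusters. Each cluster is longer than the 10000 bp of a local background. The part of coverage and length in their folds was not tested.

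Chromosome 16 had 3 further member sites. A group of 4 RBMX and 3 RPA1 peaks of replicate 2, chr16:38266291-38280181, had folds of at most 35.2 and 37.7 and no replicate 1 peak. At chr16:36193305-36193850 each protein had a replicate 1 peak of 16 and 15 tags and folds of 10.0 and 10.1, with none in replicate 2. An RBMX replicate 1 peak of 15 tags and fold 8.02 at chr16:33336576-33337074 stood alone, 5.41 kb from the long non-coding RNA gene LOC105369266.

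Among the very highest peaks of replicate 1, members were common by tags and absent by fold. In RBMX replicate 1, 5 of the 10 peaks with most tags were members and 0 of the 10 with the largest fold, and RPA1 replicate 1 gave the same 5 and 0. Over all members the orders were closer, with a median rank of 81 by tags and 79 by fold among the 258 RBMX peaks and of 67 and 84 among the 360 RPA1 peaks. The tags inside members were 4762 in RBMX, which is 28.1% of the tags in all its peaks, and 4261 in RPA1, which is 22.1%. Relative to the whole libraries these are 0.0236% and 0.0212% of tags. The chromosome 16 members carried most of them: their median was 203.5 tags in RBMX (15 to 996) and 207 in RPA1 (15 to 1014), against 29 (17 to 79) and 32 (17 to 117) on chromosome 1. The median member fold was 8.86 in RBMX replicate 1 and 8.74 in RPA1 replicate 1, against 6.37 and 6.16 over the whole lists.

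**Figure D3:**
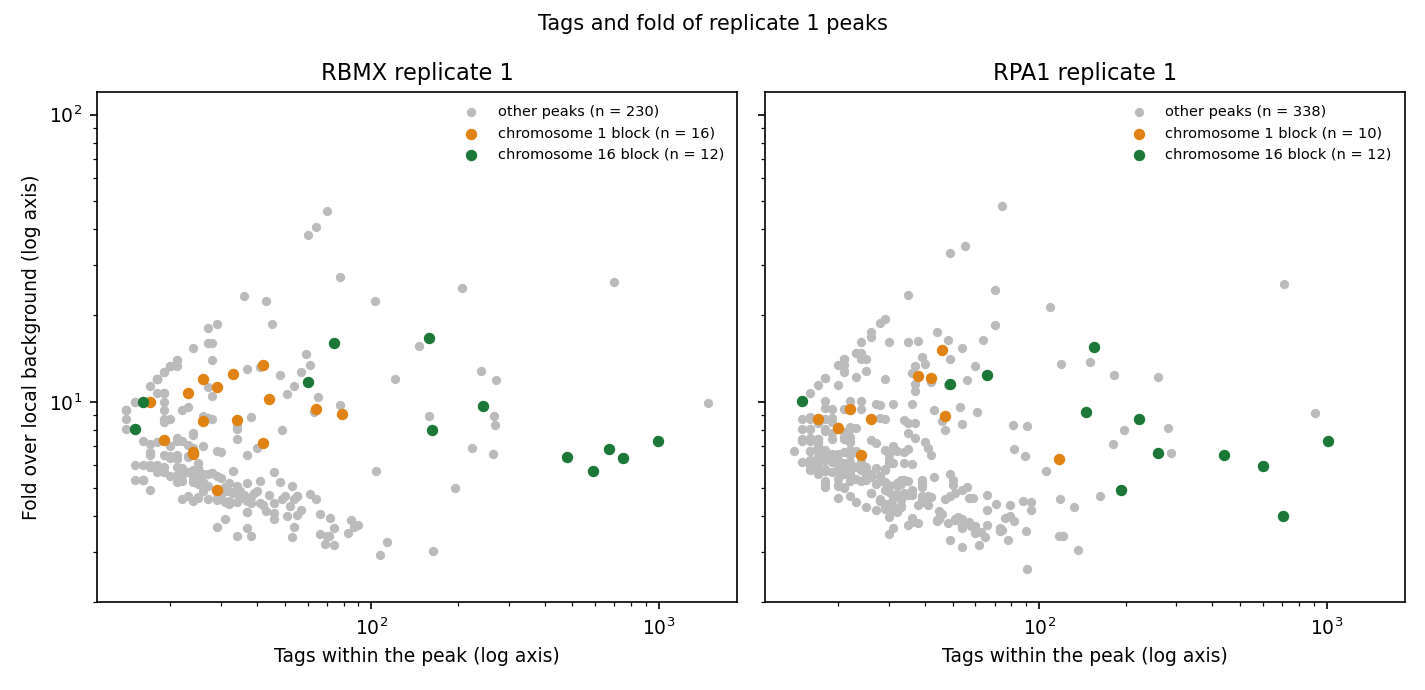
Tags within the peak (x axis, log) and deposited fold (y axis, log, labelled as over local background) of each replicate 1 peak, for RBMX (left, 258 peaks) and RPA1 (right, 360 peaks). Chromosome 16 members (green) reach 996 and 1014 tags at folds near 7.3, chromosome 1 members (orange) stay at or below 117 tags, and grey points are the other peaks.

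In replicate 2 the background was 1 level for the genome, so the fold and the summit tags gave the same order. The median member fold was 37.1 in RBMX and 40.2 in RPA1, against 17.6 and 16.9 over the whole lists, and 14 and 13 of the 20 peaks of largest fold were members. Summits had a median of 54 tags (15 to 342) on chromosome 1 and 63 (23 to 243) on chromosome 16 in RBMX, and 73 (24 to 359) and 104 (23 to 268) in RPA1. Over all members the medians were 56 and 78 tags, and over the other peaks 24 and 30. Without the long-arm cluster of chromosome 1 the median fold of the RBMX members was 22.5 and that of the RPA1 members was 40.2. Members covered 60.0 kb in RBMX and 56.8 kb in RPA1, 18.8 and 19.1% of the length of all peaks, and 39.0 and 28.4 kb in replicate 1, 13.7 and 7.44%.

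For the 17 regions with a peak in all 4 lists, 7 on chromosome 1 and 10 on chromosome 16, the blocks differed in how the replicates compared. The summit tags of replicate 2 per 1000000 retained tags of the library (RPM) were divided by the RPM within the whole replicate 1 peak, 2 quantities that are not the same, so only their order between regions is of use. On chromosome 16 this ratio was 1.24 at the median for RBMX (0.740 to 6.82) and 1.76 for RPA1 (0.771 to 7.11). On chromosome 1 it was 5.85 (1.56 to 43.2) and 5.83 (1.94 to 43.6). With replicate 1 expressed as the mean pileup over the peak, the medians were 15.0 and 14.4 on chromosome 16 and 55.0 and 55.4 on chromosome 1. The ranges of the blocks overlapped in each case. In chr1:125178798-125180787 the values were 1.19 and 1.20 RPM in replicate 1 against 51.3 and 52.1 in replicate 2, and in chr16:46386102-46392162 they were 49.3 and 50.5 against 36.5 and 38.9. Tags were 50 bp long in replicate 1 and 150 bp in replicate 2, and the part of tag length in these ratios was not tested.

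**Figure D4:**
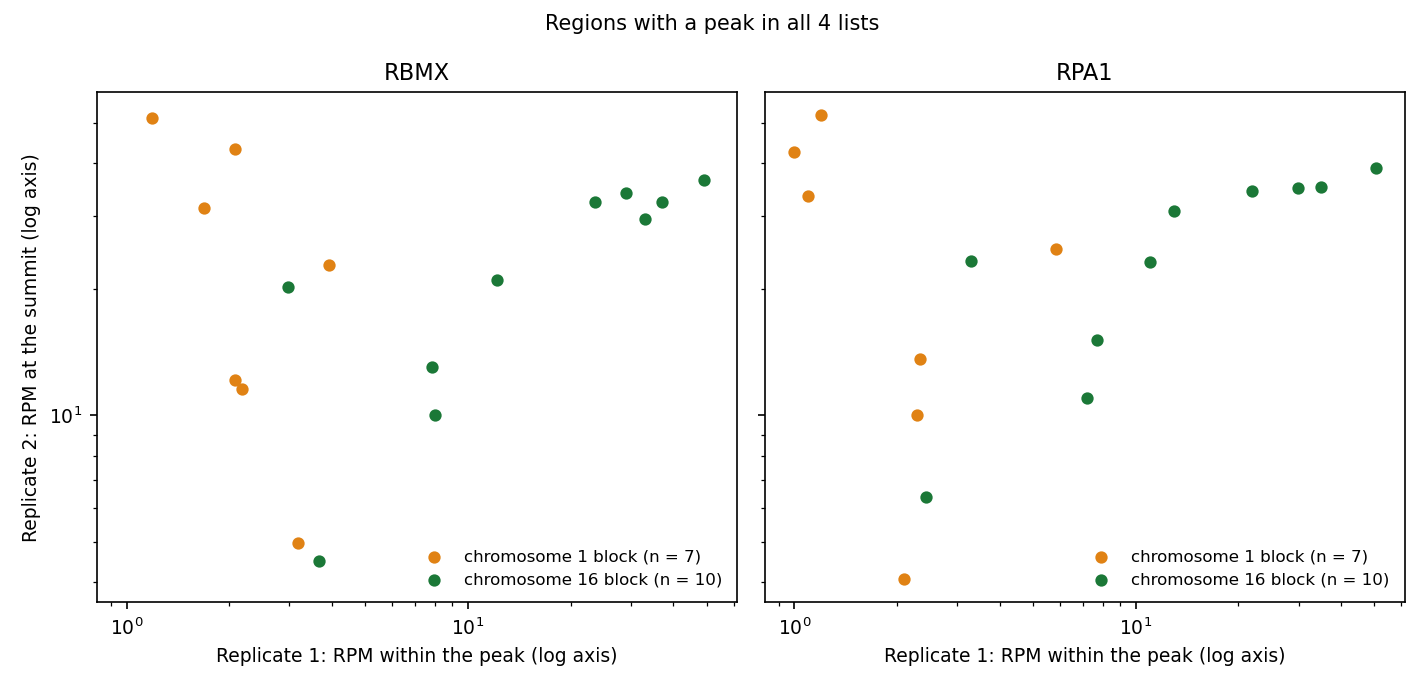
The 17 regions with a peak in all 4 lists, for RBMX (left) and RPA1 (right), with tags within the replicate 1 peak as RPM (x axis, log) and tags at the replicate 2 summit as RPM (y axis, log). The highest replicate 2 points of chromosome 1 (orange) lie at 0.996 to 2.08 RPM in replicate 1, whereas the highest of chromosome 16 (green) lie far to the right, up to 49.3 and 50.5.

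Sharing was first counted between proteins of the same replicate, as a peak overlapping a peak of the other list by at least 1 bp. In RBMX replicate 1, 21 of 28 members were shared with RPA1 (75.0%, exact interval 55.1 to 89.3%), against 41.5% of the whole list. In RPA1 replicate 1, 21 of 22 members were shared with RBMX (95.5%, 77.2 to 99.9%), against 30.3%. In RBMX replicate 2 it was 76 of 89 (85.4%, 76.3 to 92.0%), close to the 76.3% of the whole list, and in RPA1 replicate 2 it was 79 of 80 (98.8%, 93.2 to 100.0%), against 87.5%. The whole-list shares in replicate 2 were already high, so sharing between proteins set the members apart from the whole list less there than in replicate 1. Peaks near other centromeres were not counted apart, so this sharing is not shown to be particular to the blocks.

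Sharing between replicates of the same protein was lower in the lists that held more peaks. In RBMX, 24 of 28 members of replicate 1 overlapped a replicate 2 peak (85.7%, 67.3 to 96.0%), against 25.8% of the list's chromosomal and mitochondrial peaks. In RPA1 it was 17 of 22 (77.3%, 54.6 to 92.2%), against 15.0%. In the other direction, 32 of 89 RBMX members of replicate 2 overlapped a replicate 1 peak (36.0%, 26.0 to 46.8%), against 17.8%, and 24 of 80 RPA1 members did (30.0%, 20.3 to 41.3%), against 17.6%. Chromosome 16 members of replicate 2 were shared more often, 14 of 26 and 15 of 25, than those of chromosome 1, 18 of 62 and 9 of 55, a difference given as counts with no test. Replicate 1 peaks covered 40.4 to 57.0% of the short-arm and long-arm clusters of chromosome 16 and at most 12.9% of any chromosome 1 cluster. An overlap of 1 bp is easier where more is covered, and the part of this in the shares was not tested. Counting only peaks that cover 50% of each other gave 35.7% and 54.5% for RBMX and RPA1 of replicate 1 and 11.2% and 15.0% for those of replicate 2. Whole-list shares were not counted under that rule.

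Of the 82 joined regions, 66 had peaks of both proteins (80.5%, 70.3 to 88.4%) and 22 had both replicates (26.8%). Joined regions of the whole lists were not counted, so the region counts here are not shown to be particular to the blocks. The commonest combination, 41 regions, was RBMX and RPA1 of replicate 2, and 17 regions had all 4 lists. RBMX of replicate 2 alone accounted for 13 regions, 7 of them among the scattered chromosome 1 sites. These 13 had 15 to 30 summit tags and folds of 10.4 to 20.2, below the RBMX member medians of 56 tags and 37.1. The opposite case, RPA1 of replicate 2 alone, was a single region from 143187706 on chromosome 1 with 32 summit tags.

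The heights of the proteins could be compared within replicate 2, where 74 member regions had a peak of each. The ratio of RBMX to RPA1 summit RPM had a median of 0.897 and ran from 0.638 to 1.25, and in the 361 other such regions the median was 0.897 as well, with a range of 0.307 to 1.83. Taken from the deposited folds, the median ratio was 1.12 in members and 1.11 in the others. Both measures come from the same summit tags and differ in how each library is scaled, so the direction depends on the scaling. Neither protein can thus be called higher in the blocks. An exact interval of the tag ratio lay above 1 in 0 of the 74 members, against 0.460% of all 435 regions, and below 1 in 4, against 7.13%. These 4 were chr16:34584657-34586289 with 52 RBMX and 80 RPA1 tags, chr16:34586447-34587438 with 121 and 174, chr1:143230149-143230481 with 57 and 87, and chr1:143219578-143221167 with 151 and 205.

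Ordered by the ratio of folds, the 3 lowest member regions lay in the chromosome 16 clusters and the 3 highest in the long-arm cluster of chromosome 1. The lowest was chr16:34590236-34590472 with 29 RBMX and 47 RPA1 tags, a tag ratio of 0.638 (95% interval 0.387 to 1.03). Next came chr16:46385189-46385440 with 35 and 55 tags (0.658, 0.418 to 1.02) and then chr16:34584657-34586289, given above. The highest was chr1:143227719-143228031 with 40 and 33 tags, a tag ratio of 1.25 (0.770 to 2.05). It was followed by chr1:143246837-143247480 with 81 and 69 tags (0.869 to 1.70) and chr1:143245434-143245899 with 33 and 28 (0.714 to 2.09). Of these 6 intervals, that of chr16:34584657-34586289 (0.465 to 0.965) leaves out 1. Across the 74 members the log2 values of the proteins had a Pearson correlation of 0.982 (Spearman 0.977), and across the other 361 regions 0.902 (0.831). These correlations are over regions of 2 libraries, which share the genome and its repeat content. Summits lay closer too, 13 bp apart at the median and within 50 bp in 65 of 74 members (87.8%), against 32 bp and 63.2% in the others, which had fewer tags. Only 1 tag was kept per position and tags were extended to 200 bp, which limits how high a summit can be. The part of this limit in the ratios and correlations was not tested.

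**Figure D5:**
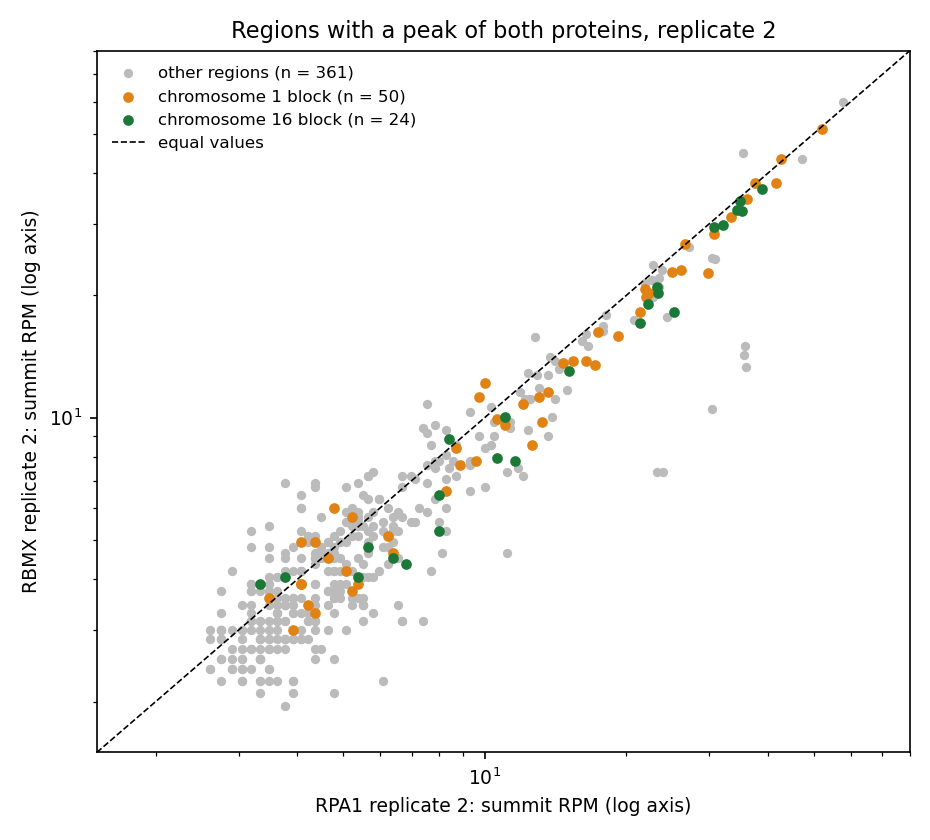
Summit tags as RPM of RPA1 (x axis, log) and RBMX (y axis, log) in replicate 2, 1 point per region with a peak of both proteins, with members of chromosome 1 (orange, 50) and chromosome 16 (green, 24), the other 361 regions (grey) and the line of equal values (dashed). Members lie along the line and mostly just under it, up to 51.3 and 52.1 RPM, while some grey points fall well below it.

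Gene bodies were almost absent under the members. Of the members, 0 of 28 and 1 of 89 RBMX peaks and 0 of 22 and 0 of 80 RPA1 peaks (replicate 1, then 2) overlapped an annotated gene. Over each list's chromosomal peaks the shares were 57.6 and 27.4% for RBMX and 66.5 and 23.2% for RPA1. Genes took up little of the full block length, unknown sequence included. The share was 2.41% of the chromosome 1 block (25 genes, 4 of them protein-coding), 8.83% of the chromosome 16 block (191, 21) and 15.2% of the chromosome 9 block (294, 25). Of these 510 genes 1 was overlapped and 5 lay within 10 kb of a member: FAM27E4, FAM27C, LOC105379807 and LOC102723678 on chromosome 9 and LOC105369266 on chromosome 16. A list of gene families and classes, matched by the start of the symbol, had 153 genes in the blocks. It included ANKRD20A and CNTNAP3 on chromosome 9, TP53TG3 and orphan IGHV segments on chromosome 16, and general classes such as LINC (12 genes) and RNA5S (21). Of the 153 genes 1 was overlapped and 2 lay within 10 kb, all in the FAM27 family of 5 genes.

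The chromosome 9 block stood out by its lack of peaks, but how much of it is unknown sequence was not examined. Its only member was an RBMX replicate 2 peak, chr9:61856592-61856921, of 330 bp with 26 tags at the summit and a fold of 17.6, the same as the median of its list. Neither RPA1 list nor RBMX replicate 1 had a peak there. It was the only member over an annotated gene, the long non-coding RNA gene FAM27E4, and it began 113 bp before and ended 216 bp after a transcript start at position 61856705 on the plus strand, the one the promoter table uses. The gene record itself begins at 61855760, which is 832 bp before the peak. Its sequence is shown because this is the only one of the 171 promoter windows in the blocks (of 35116 in the RefSeq table, GRCh38.p14) to lie under a member. The window, chr9:61856455-61856754, is written 5′ to 3′ on the plus strand, and capitals mark the 163 of 300 bases under the peak.
FAM27E4: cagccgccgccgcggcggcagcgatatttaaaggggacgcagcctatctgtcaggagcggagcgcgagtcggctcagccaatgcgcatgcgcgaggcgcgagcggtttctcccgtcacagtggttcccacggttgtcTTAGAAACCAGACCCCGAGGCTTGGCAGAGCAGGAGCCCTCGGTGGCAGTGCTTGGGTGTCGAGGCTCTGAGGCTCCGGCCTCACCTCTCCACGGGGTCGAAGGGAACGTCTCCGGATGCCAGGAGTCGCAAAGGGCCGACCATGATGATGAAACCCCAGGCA
The window had 64.7% G and C, against a median of 58.7% over all promoter windows and 57.7% over those of the blocks. The satellite unit CATTC, searched on both strands, was not in it, and 35.7% of all promoter windows hold this short word.

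FAM27E4 belongs to a family with copies along chromosome 9. The window shared a run of 66 identical bases with that of FAM27B (chr9:67726694-67726993, minus strand), at positions 52 to 117 counted from its 5′ end and outside the peak. It shared runs of 48 bases with the windows of LOC105379444 and LOC105379807, of which 10 and 11 bases lay under the peak, and none of these 3 windows had a member. The run shared with LOC105379807 (window chr9:61862566-61862865, minus strand) covers positions 101 to 148, with the bases under the peak in capitals.
Run shared by FAM27E4 and LOC105379807: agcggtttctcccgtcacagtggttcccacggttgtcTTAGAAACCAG
Within the part of the window under the peak alone, the longest run found in the LOC105379807 window was 20 bases, against 11 for LOC105379444 and 9 for FAM27B. Runs broken by a mismatch are not joined in this measure, so it is not a percentage of identity.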

How the data were processed

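Per the file headers, the authors' lists of replicate 1 came from MACS 1.4.2 (no control, p 1e-05) and those of replicate 2 from MACS2 2.2.4 (input as control, local background off, p 1e-12), with tags extended to 200 bp and 1 tag kept per position. Bowtie2, deepTools 3.4.1 and hg38 are named in the submitters' processing notes, with no roles given. The deposited replicate 1 lists give tag counts per peak, a score that is a fixed multiple of −log10 p and a fold ratio. The deposited replicate 2 lists give a pileup signal at the summit, −log10 p and q values and a fold ratio. Lists were called per sample.

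From these, members were taken by midpoint after naming chromosomes as chr names, overlaps were counted at 1 bp, overlapping peaks were joined, and regions within 10 kb were clustered. Replicate 2 pileups were divided by the caller's scaling to the input (the smaller of 1 and input over treatment tags), which gave whole tags to within 0.00519 (RBMX) and 0.00733 (RPA1). Intervals of shares are exact Clopper-Pearson at 95%, and intervals of tag ratios are exact binomial, covering counting error only. Nothing was tested between groups. Per list the 3 members of largest fold, per block the 5 regions in most lists, and the 3 highest and 3 lowest fold ratios are named. The members and lists were chosen with earlier results of these data known. The overlap code was checked on simulated data. Genes and promoters are from RefSeq (GRCh38.p14, 59679 genes). Software was Python 3.11.15 with pandas 2.3.3, NumPy 2.4.6, SciPy 1.17.1 and matplotlib 3.10.9. The inputs were not analysed here, and no satellite sequence was used.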

Additional observations from a re-analysis of the deposited data

How the results depend on the processing

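Of 76 recomputed values, 44 stayed within 1.5 times a count or within the interval of the reported share or median, 31 moved and 1 changed direction. All were recomputed for members only. Whole-list shares under the same settings were not counted, so the shares below cannot be set against the whole lists. With replicate 1 held to p 1e-12, RBMX replicate 1 had 12 members, of which 91.7% were shared with RPA1 and 100% with replicate 2, while 73.3% of the RPA1 replicate 1 members were shared with RBMX and 19.1% of the RBMX replicate 2 members with replicate 1. With all lists at p 1e-20, members were 6 (RBMX) and 10 (RPA1) in replicate 1, 100% and 60% shared with the other protein, 100% of each shared with replicate 2, and 9.09% (RBMX) and 20% (RPA1) of replicate 2 members shared with replicate 1. At 50% overlap of both peaks, sharing between replicates was 35.7% (RBMX) and 54.5% (RPA1) from replicate 1 and 11.2% and 15.0% from replicate 2, and 90% of RPA1 replicate 2 members were shared with RBMX. At 1 kb apart, 47.2% (RBMX) and 43.8% (RPA1) of replicate 2 members were shared with replicate 1. By construction, counts of members can only fall at a stricter p. Sharing can only fall at 50% overlap and only rise at 1 kb. With only replicate 1 held to p 1e-12, the shares of replicate 2 members with replicate 1 can also only fall. Shares of replicate 1 members at a stricter p are not fixed in this way and rest on few peaks. Without the long-arm cluster of chromosome 1, chosen after seeing the data, members were 15 and 14 (RBMX and RPA1, replicate 1) and 44 and 34 (replicate 2), and the RBMX replicate 2 median fold was 22.5. Without it RPA1 members were 100% shared with RBMX in both replicates, and 92.9% (replicate 1) and 50% (replicate 2) with the other replicate. Clusters numbered 42 at 1 kb, 15 without replicate 1 and 8 without replicate 2. Without replicate 1 or replicate 2, 84.1% or 71.4% of regions had both proteins. The RBMX to RPA1 ratio was 0.897 by RPM and 1.12 by fold, also chosen after seeing the data. Any overlap and blocks extended by 1 Mb changed no count by over 1.5 times. The extension took RPA1 replicate 1 from 22 to 31 members and RBMX replicate 1 from 28 to 31. In replicate 2 it took RBMX from 89 to 90 and RPA1 from 80 to 81. No paired analysis was possible because no result comes from a test and the labels number only replicate 2. The counts behind a peak set its precision: the median chromosome 1 member of replicate 1 rests on 29 (RBMX) or 32 (RPA1) tags.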
